A study of Mus musculus with 22 samples.

Results

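RNA was sequenced from 4 whole cultures of Oct4GIP mouse epiblast stem cells (mEpiSCs) that had been moved from primed medium into Basal medium alone or into 2iL, at day 8 (d8) and day 16 (d16). These 4 libraries, chosen by their treatment labels, were 2iL d8, 2iL d16, Basal d8 and Basal d16, out of 22 libraries in the series. Oct4GIP is a line from 129/Ola mice in which an Oct4 promoter drives green fluorescent protein and puromycin resistance. All 4 cultures were started from cells kept in FGF2 and Activin A and plated for 1 day on mouse embryonic fibroblast (MEF) feeders, and no step to remove the feeders before RNA extraction is described. Basal medium held serum replacement and a little serum but no FGF2 or Activin A, and 2iL adds the MEK inhibitor PD0325901, the GSK3 inhibitor CHIR99021 and the cytokine LIF. No allele or agent besides 2iL separated the sides, and each side had 1 library a day, so that the 2 days served as the only repeats. A further 4 Oct4GIP libraries, from AICAR and AICAR+LIF cultures at d8 and d16, were used only to estimate the spread and as neighbouring values.

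2iL holds naive mouse embryonic stem cells in self-renewal, because MEK inhibition blocks the ERK signal that drives differentiation, GSK3 inhibition stabilises beta-catenin, and LIF activates STAT3. Primed mEpiSCs stand at a later stage that depends on FGF and Activin, and without those factors they leave pluripotency, often towards neural ectoderm. In the embryo the neural tube is patterned from head to tail by signals that include Wnt, FGF and retinoic acid. Otx2 marks forebrain and midbrain, whereas Hox genes lie in clusters whose order along the chromosome follows the order in which they are expressed from hindbrain to tail.

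The total count was 2860985 in Basal d8, 2396575 in 2iL d8, 5290163 in Basal d16 and 2835779 in 2iL d16. A floor of 3 counts corresponded to between 0.556 and 1.22 CPM, the count scaled to the library's total and its TMM factor, in these libraries. The label of an epiblast stem cell culture described the cells at the start rather than those sequenced. Pou5f1 (Oct4), which defines pluripotent cells, stood at 1.37 CPM in Basal d8, 0.782 in 2iL d8, 0.742 in Basal d16 and 0.812 in 2iL d16, against 831 CPM in the primed Oct4GIP library. Zfp42 (Rex1), a naive marker, had no count in 3 of the 4 libraries. Neural genes were counted in large numbers instead. The neuronal microtubule gene Dcx stood at 1179 and 867 CPM in Basal and 2iL at d8, and the astrocyte filament gene Gfap at 4440 and 13172 CPM at d16. In a whole culture, fewer cells of a type and less RNA per cell cannot be told apart. Of 15473 genes tested with edgeR on the 8 cultures, 1 gene rose (0.00646% of genes tested) and 1 fell (0.00646%) at an adjusted p-value under 0.05, and 1049 genes had an unadjusted p-value under 0.05. Most results below are therefore given as values that were at least 2-fold apart in the same direction on both days, with no test. Of 13540 genes with a mean of at least 5 CPM, 110 (0.812%) were at least 2-fold higher in 2iL on both days and 175 (1.29%) at least 2-fold lower, and the median log2 ratio over the 13540 genes was −0.04 at d8 and −0.02 at d16. On the 2 days taken alone, 273 genes (2.02%) were higher and 515 (3.8%) lower at d8, and 973 (7.19%) were higher and 1076 (7.95%) lower at d16. Without the minimum of 5 CPM, 146 of all 34489 genes (0.423%) were higher on both days and 268 (0.777%) lower. Counts of list members below are to be read beside these shares of all genes.

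Most Hox genes of the middle of the clusters had higher values in 2iL than in Basal medium on both days. Of 39 Hox genes in the table, 23 were at least 2-fold higher in 2iL on both days and 0 were lower, without a minimum level. Of the 23 Hox genes with a mean of at least 5 CPM, most of which reached it only through their 2iL level, 19 were at least 2-fold higher on both days. Of the 25 that entered the test, 0 passed edgeR's adjusted threshold. At a looser adjusted level of 0.1, edgeR took in 5 of these Hox genes, against 25 of all 15473 genes. With an unadjusted p-value under 0.05 in edgeR, 21 of these Hox genes were higher and 1 lower, against 512 and 537 of all genes. A gene could enter the test through its 2iL level alone, so the Hox counts set beside those of all genes support nothing. Higher Hox genes lay in all 4 clusters. The promoters of 5 of the leading ones, from Hoxa, Hoxb and Hoxd, are therefore shown. They are the 250 bases before the RefSeq start (build GRCm38.p6), written 5′ to 3′ on the gene's strand. Capitals mark matches to TTTATG, a core of the binding motif of the caudal factors Cdx1, Cdx2 and Cdx4, or to CTTTGA, a core of the motif of the TCF/LEF partners of beta-catenin, on either strand. The windows lie at chr6:52204588-52204837 (minus strand) for Hoxa5, chr6:52218574-52218823 (minus) for Hoxa7, chr6:52227371-52227620 (minus) for Hoxa9, chr2:74711743-74711992 (plus) for Hoxd3 and chr11:96281655-96281904 (plus) for Hoxb8.
Hoxa5: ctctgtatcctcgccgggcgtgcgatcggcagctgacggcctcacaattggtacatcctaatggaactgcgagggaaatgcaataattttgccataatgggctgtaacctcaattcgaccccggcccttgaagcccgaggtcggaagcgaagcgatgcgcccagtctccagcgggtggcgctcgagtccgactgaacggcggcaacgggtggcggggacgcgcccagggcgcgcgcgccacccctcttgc
Hoxa7: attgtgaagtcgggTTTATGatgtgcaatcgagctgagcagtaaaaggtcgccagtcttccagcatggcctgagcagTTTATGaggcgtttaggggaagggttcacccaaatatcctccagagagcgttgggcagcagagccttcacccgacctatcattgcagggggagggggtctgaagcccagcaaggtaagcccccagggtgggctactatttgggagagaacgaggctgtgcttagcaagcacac
Hoxa9: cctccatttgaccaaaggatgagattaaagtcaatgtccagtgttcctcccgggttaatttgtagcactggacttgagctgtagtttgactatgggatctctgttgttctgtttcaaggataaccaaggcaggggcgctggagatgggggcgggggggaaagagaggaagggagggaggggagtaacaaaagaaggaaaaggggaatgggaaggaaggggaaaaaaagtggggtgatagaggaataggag
Hoxd3: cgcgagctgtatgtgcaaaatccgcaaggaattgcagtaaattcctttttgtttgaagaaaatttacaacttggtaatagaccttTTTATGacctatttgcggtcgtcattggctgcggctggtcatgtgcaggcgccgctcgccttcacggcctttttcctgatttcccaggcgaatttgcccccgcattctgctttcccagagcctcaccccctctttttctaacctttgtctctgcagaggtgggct
Hoxb8: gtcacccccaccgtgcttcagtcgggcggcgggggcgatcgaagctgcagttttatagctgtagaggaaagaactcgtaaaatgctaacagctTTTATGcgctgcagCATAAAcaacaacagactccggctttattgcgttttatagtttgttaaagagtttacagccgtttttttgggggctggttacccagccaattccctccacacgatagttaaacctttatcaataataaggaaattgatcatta
TTTATG occurred 2 times in the Hoxa7 window, 2 times in that of Hoxb8 and 1 time in that of Hoxd3, and CTTTGA in none of the 5. Of the 19 higher Hox genes, 12 had a RefSeq window, 13 windows in all. TTTATG was found in 4 of the 13, for Hoxa7, Hoxb8, Hoxd3 and Hoxd4, against 10.8% of all 32851 windows of the same length. CTTTGA was found in 2 of the 13, for Hoxa10 and Hoxd8, against 13.8% of all windows. Hoxa3 ranked above Hoxb8 by the smaller of its d8 and d16 log2 ratios (3.38 against 3.21). Its window held neither motif and is not shown, so the printed windows are not a fair sample. These matches are descriptions of the sequence only.

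Hoxa5, which acts in the neck and upper thorax, stood at 0.343 CPM in Basal d8 and 43.0 in 2iL d8, and at 0.371 in Basal d16 and 25.6 in 2iL d16. Hoxa7, a thoracic paralog, had no count in Basal d8 and 36.8 CPM in 2iL d8, and stood at 0.185 and 15.0 CPM at d16. Hoxa9 stood at 0.686 and 63.0 CPM at d8 and at 0.371 and 15.0 CPM at d16. Each of these genes was near the floor in both Basal libraries and clearly above it in both 2iL libraries, and the groups did not overlap. They were picked by the size of their ratios on both days, so this separation follows in part from the choice. The ratio of 2iL to Basal for Hoxa9, which rested on 2 counts in each Basal library, was 91.8 at d8 (95% exact interval of the counts, 25.0 to 765) and 40.5 at d16 (10.4 to 347). For Hoxa7 the d8 level in 2iL was at least 35.7-fold higher than a floor of 3 counts in the Basal library. Such intervals cover counting error only. The fitted log2 fold change was 6.62 ± 1.13 (SE) for Hoxa5, 7.11 ± 0.85 for Hoxa7 and 5.86 ± 0.69 for Hoxa9 (edgeR adjusted p = 0.157, 0.0899 and 0.0899).

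The Hoxb, Hoxc and Hoxd clusters, on other chromosomes, gave like values. Hoxb8 stood at 0.343 and 53.2 CPM in Basal and 2iL at d8 and at 0.556 and 13.4 CPM at d16. Hoxd3, which patterns the first neck vertebrae, stood at 0.343 and 100.2 CPM at d8 and at 0.185 and 12.6 CPM at d16. Hoxc4 stood at 0.343 and 46.6 CPM at d8 and at 0.371 and 8.12 CPM at d16. All 3 were lower in 2iL d16 than in 2iL d8, while the Basal libraries stayed at 1 to 3 counts. Hoxb9 differed between the days by edgeR's interaction test, with 3.09 and 257 CPM in Basal and 2iL at d8 and 2.04 and 20.7 CPM at d16. That test had 1 residual degree of freedom (adjusted p = 0.00301), and with all 22 libraries edgeR's adjusted p-value for the gene was 0.97. The 1 degree of freedom on the 8 cultures came from the AICAR and AICAR+LIF libraries alone. The ratio of Hoxb9 was 83.2 at d8 (43.5 to 183) and 10.1 at d16 (5.22 to 21.6). By cluster, 6 of 7 Hoxa genes with at least 5 CPM were at least 2-fold higher on both days, as were 6 of 8 Hoxb, 3 of 4 Hoxc and 4 of 4 Hoxd genes.

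The difference followed position within the clusters. Of the 5 genes of paralogs 1 and 2, which are expressed up to the hindbrain, only Hoxa2 and Hoxb2 had at least 5 CPM. Neither was higher in 2iL on either day, so this end of the pattern rests on 2 genes. Hoxa2 stood at 110 and 60.6 CPM in Basal and 2iL at d8 and at 55.3 and 25.2 CPM at d16, and Hoxb2 at 54.5 and 28.6 CPM at d8 and at 12.6 and 9.33 CPM at d16. Hoxb3 stood at 48.0 and 92.7 CPM at d8 and at 4.08 and 16.2 CPM at d16. These 3 genes thus stood above the floor in both Basal libraries, Hoxb3 least so at d16. Paralogs 4 to 10 had lower counts there, with at most 9 for any gene in Basal d8 and 12 in Basal d16. Paralogs 4 to 10, 22 genes, summed to 18.2 CPM in Basal d8, 835 in 2iL d8, 17.8 in Basal d16 and 208 in 2iL d16. Paralogs 11 to 13, which act in the tail, limb and genital region, summed to between 1.48 and 4.30 CPM in the 4 libraries, and none of these 9 genes passed 6 counts in any of them. The 4 genes with at least 5 CPM that missed the 2-fold rule were Hoxa2, Hoxb2, Hoxb3 and Hoxc9, the last at 2.23 and 2.84 CPM in Basal and 2iL at d16. The Hoxa3 gene spans Hoxa5 on the same strand, and Hoxd3 reaches over Hoxd4, so that values of overlapping Hox genes may share reads.

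**Figure D1:**
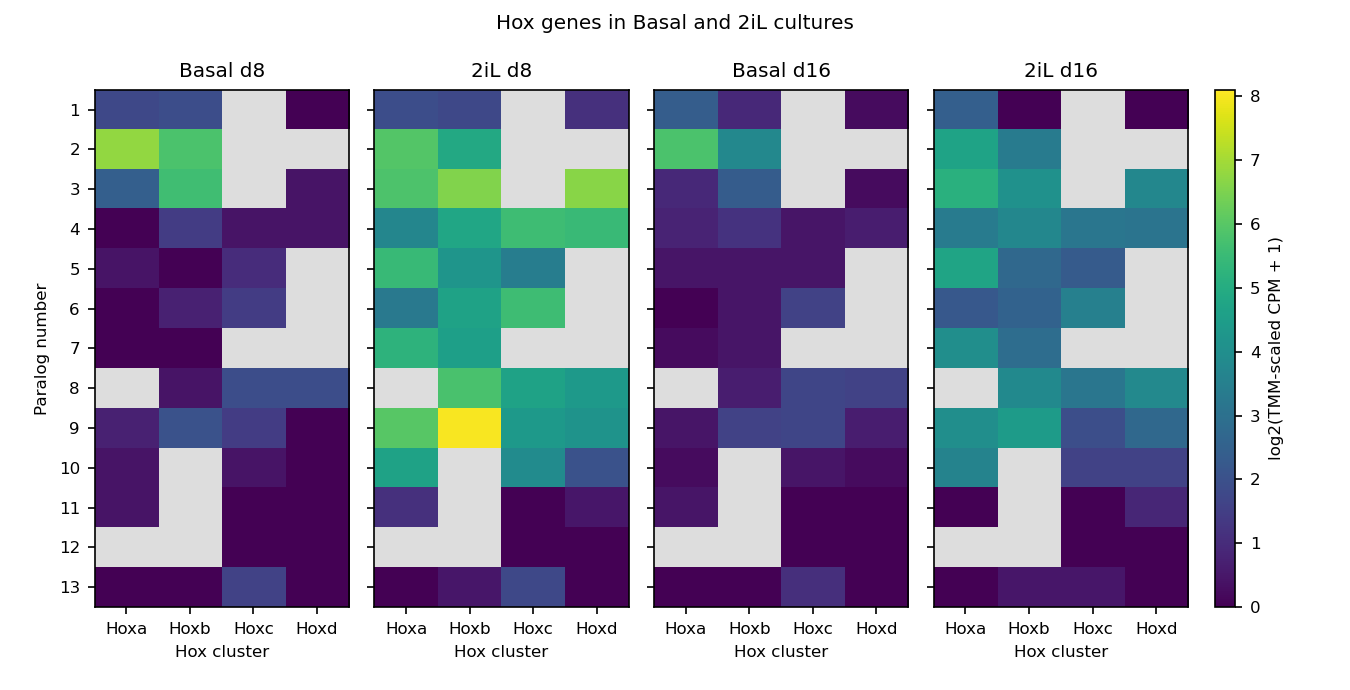
Level of each Hox gene as log2(CPM + 1), by paralog number (rows) and cluster (columns), in each of the 4 libraries, with grey where no such gene is in the table. Most of the 22 genes of paralogs 4 to 10 are darker in the Basal than in the 2iL libraries (17 at least 2-fold on both days, with a mean of at least 5 CPM), less so at d16, and Hoxa2 and Hoxb2 are lit in all 4.

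In the AICAR cultures, which started from the same cells, paralogs 4 to 10 summed to 35.6 CPM at d8 and 43.2 at d16, and in AICAR+LIF to 51.7 and 69.2 CPM, while the primed Oct4GIP library held 2.61 CPM. AICAR+LIF d8 was the shallowest library, with a total count of 438771. Markers of the feeders are given beside the Hox genes. The summed level of 25 fibroblast markers was 7613 CPM in Basal d8, 6830 in 2iL d8, 11469 in Basal d16 and 69528 in 2iL d16, so that 2iL d16 stood apart from the other 3 libraries. These markers were slightly lower in 2iL at d8 (median log2 ratio −0.43) and higher at d16 (2.12). In AICAR d16 and AICAR+LIF d16 the markers summed to 27313 and 32366 CPM. All 25 markers had a count in each of the 4 libraries. The part of the feeders in the Hox and other differences was not tested, at d8 or at d16.

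Several genes of the rostral and dorsal neural tube had lower values in 2iL on both days, and 0 of them passed edgeR's adjusted threshold. Otx2, the homeobox factor of forebrain and midbrain and also of primed epiblast, stood at 14.4 CPM in Basal d8 and 1.17 in 2iL d8, and at 111 CPM in Basal d16 and 1.62 in 2iL d16. The Basal level was 12.3 times that of 2iL at d8 (3.92 to 61.9) and 68.3 times at d16 (26.5 to 252). The groups did not overlap, but Otx2 too was picked by the size of its ratios. The fitted log2 fold change of −5.15 ± 0.84 did not pass the threshold (edgeR adjusted p = 0.144). The midbrain factor Dmbx1 stood at 52.1 and 1.17 CPM in Basal and 2iL at d8 and at 1.85 and 0 CPM at d16. Barhl1, a factor of diencephalon, hindbrain lip and inner ear, had no count in 2iL d8 against 9.26 CPM in Basal d8, and stood at 28.4 and 0.812 CPM in Basal and 2iL at d16. En2 of the midbrain-hindbrain boundary went the other way, with 0 counts in both Basal libraries and 5.87 and 8.52 CPM in 2iL at d8 and d16. Of 9 forebrain and midbrain factors with at least 5 CPM, 4 were at least 2-fold lower on both days and 0 higher. Members could reach 5 CPM through their Basal level alone. Without a minimum level, 6 of the 23 on the list were lower and 1 was higher.

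Several dorsal genes had lower values in the same libraries. Olig3, a factor of dorsal progenitors, stood at 62.1 and 0.391 CPM in Basal and 2iL at d8 and at 6.31 and 0.406 CPM at d16. Wnt1, a ligand of the dorsal midline and midbrain, stood at 27.4 and 0.782 CPM at d8 and at 8.90 and 0.406 CPM at d16. Atoh1, a factor of dorsal hindbrain progenitors, had no count in either 2iL library, against 6.86 CPM in Basal d8 and 11.5 in Basal d16. In 2iL these 3 genes thus rested on at most 2 counts a library. Wnt1 had a log2 fold change of −4.80 ± 0.48 (edgeR adjusted p = 0.0865) and Olig3 one of −6.35 ± 0.96 (adjusted p = 0.122). The roof plate gene Msx1, a BMP and Wnt responsive factor, stood at 17.5 and 4.69 CPM at d8 and at 110 and 11.4 CPM at d16. Of 15 roof plate and dorsal neural tube genes with at least 5 CPM, 7 were at least 2-fold lower on both days and 0 higher, with medians of −1.25 at d8 and −1.77 at d16. Members could reach 5 CPM through Basal alone, and without a minimum level 10 of 18 were lower and 0 higher. These lists were written after the values had been seen, so their counts describe the data and support nothing.

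Ttr codes for the thyroid hormone carrier that choroid plexus epithelium secretes in large amounts, and it was also on the list of endoderm genes. Ttr fell. It stood at 3.09 CPM in Basal d8 and had no count in 2iL d8, and stood at 3996 CPM in Basal d16 and 9.74 in 2iL d16. The level in Basal d16 was 410 times that in 2iL d16 (276 to 640), and at d8 the 9 counts of Basal were at least 2.63-fold over a floor of 3 counts in 2iL. Its log2 fold change of −8.59 ± 0.48 had an edgeR adjusted p-value of 0.00511, and the Basal values spread so far between the days that Basal d8 lay below 2iL d16. Without Basal d16 the adjusted p-value was 0.504, and without 2iL d16 it was 0.511, so that the call rested on the d16 pair. Of 5 endoderm genes with at least 5 CPM, 1 was at least 2-fold lower on both days and 1 higher. Other choroid plexus genes lay with Ttr. Slc4a5, a bicarbonate transporter of that epithelium, stood at 5.49 and 0 CPM in Basal and 2iL at d8 and at 91.4 and 0.406 CPM at d16. Clic6, an ion channel gene, stood at 2.40 and 0.391 CPM at d8 and at 87.7 and 0.812 CPM at d16. Kcne2, a potassium channel subunit, had a count only in Basal d16, at 20.03 CPM. Of 13 choroid plexus genes with at least 5 CPM, 5 were at least 2-fold lower on both days, and the median log2 ratio was −0.77 at d8 and −2.70 at d16. This list too was written after its values had been seen, and its members could reach 5 CPM through Basal alone.

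**Figure D2:**
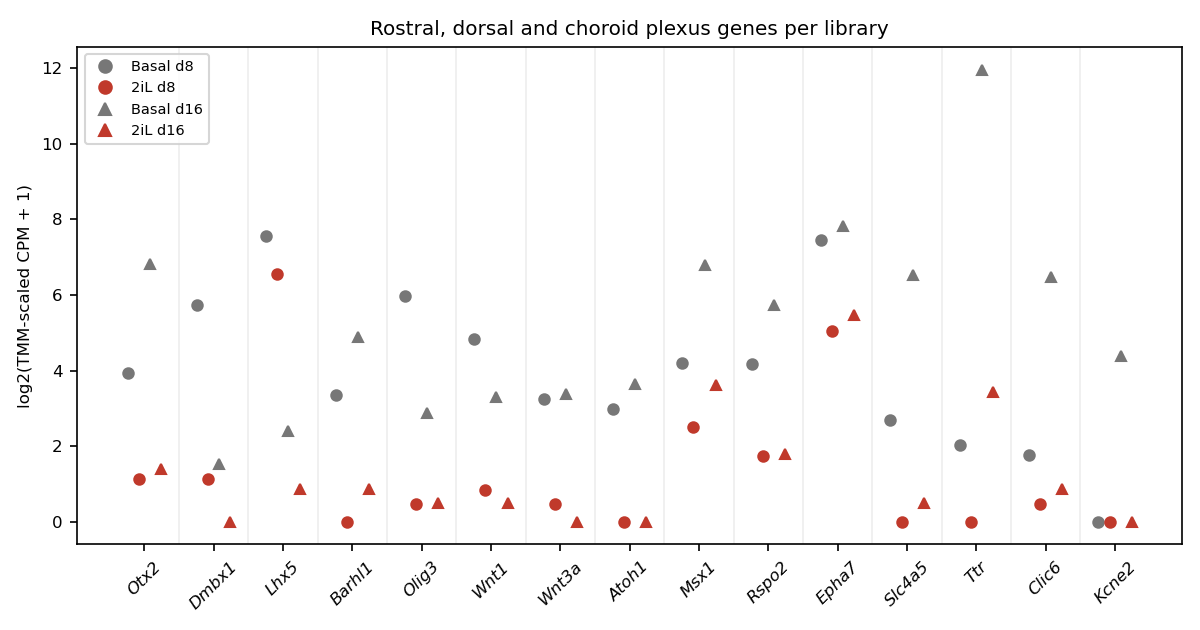
Level of 15 rostral, dorsal and choroid plexus genes as log2(CPM + 1) in each library, circles for d8 and triangles for d16, grey for Basal and red for 2iL. The genes were picked after their values were seen. Red points lie below grey points of the same day for every gene except Kcne2 at d8, where both are at 0.

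The rule on size named further lower genes of differing roles. Epha7, an ephrin receptor that guides axons, stood at 174 and 32.1 CPM in Basal and 2iL at d8 and at 224 and 43.4 CPM at d16. The Basal level was 5.42 times that of 2iL at d8 and 5.15 times at d16 (log2 fold change −2.40 ± 0.25, edgeR adjusted p = 0.0865). Its relative Epha5 stood at 55.6 and 8.22 CPM at d8 and at 28.4 and 2.84 CPM at d16. Rspo2, a secreted enhancer of Wnt signalling, stood at 17.1 and 2.35 CPM at d8 and at 52.7 and 2.44 CPM at d16. Dach2, Abcg1, Nphs1, Diras2, Hpgds and Gm38534 were also at least 4-fold lower on both days, with log2 fold changes between −3.56 for Dach2 and −2.54 for Gm38534 and adjusted p-values between 0.0991 and 0.54. Abcg1 exports cholesterol from cells, and Nphs1 codes for nephrin. The early neuronal gene Neurog2 was lower in 2iL as well, at 164 and 69.2 CPM at d8 and 21.3 and 3.65 CPM at d16. Fabp7, a fatty acid carrier of radial glia, stood at 468 and 173 CPM at d8 and at 1288 and 451 CPM at d16. Of 26 neural genes with at least 5 CPM, 4 were at least 2-fold lower on both days (1.29% over all genes) and 0 higher (0.812%). Their medians were −0.41 at d8 and −0.94 at d16. The summed level of the whole list of 31 genes went from 11229 CPM in Basal to 8172 in 2iL at d8. At d16 it went the other way, from 8407 CPM in Basal to 15095 in 2iL. Sox2 differed in direction between the days, at 164 and 212 CPM at d8 and 307 and 167 CPM at d16.

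C3, the central complement protein, rose. It had no count in Basal d8 and 9 counts (3.52 CPM) in 2iL d8, and stood at 15.8 CPM in Basal d16 and 531 in 2iL d16. The d16 ratio was 33.7 (27.0 to 42.5), and the log2 fold change was 5.05 ± 0.42 (edgeR adjusted p = 0.0367). Basal d16 lay above 2iL d8, so the groups overlapped across the days. The adjusted p-value was 1 without Basal d16 and 0.552 without 2iL d16, and between 0.0553 and 0.0933 with each AICAR or AICAR+LIF library left out in turn. The C3 promoter, chr17:57228137-57228386 (minus strand, the 250 bases before the RefSeq start in GRCm38.p6), is shown because C3 was the only gene called higher. It was searched for TTCCNGGAA, the palindromic STAT3 motif, on both strands, and held no match, so it has no capitals. The motif occurred in 0.913% of all windows.
C3: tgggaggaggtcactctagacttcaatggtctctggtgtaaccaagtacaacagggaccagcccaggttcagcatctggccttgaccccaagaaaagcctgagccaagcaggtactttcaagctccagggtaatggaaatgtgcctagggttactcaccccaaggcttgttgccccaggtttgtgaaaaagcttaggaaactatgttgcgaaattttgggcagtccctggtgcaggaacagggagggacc

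Some acute-phase and other complement genes had higher values in 2iL too, mostly at d16. Serpina3n, a serine protease inhibitor of reactive astrocytes, had no count in Basal d8 and 7.43 CPM in 2iL d8, and stood at 218 and 1746 CPM in Basal and 2iL at d16. Saa3, an acute-phase serum amyloid, stood at 0.686 and 5.87 CPM at d8 and at 3.52 and 109 CPM at d16. Both genes were higher in 2iL on both days, but for Serpina3n the level in Basal d16 exceeded that in 2iL d8. Lcn2, which binds bacterial siderophores, had no count at d8 in either medium and stood at 0.927 and 295 CPM at d16. Cxcl12, a chemokine of stromal cells, stood at 3.09 and 52.0 CPM at d8 and at 39.7 and 295 CPM at d16 (log2 fold change 3.24 ± 0.37, edgeR adjusted p = 0.0886). Of 11 such genes with at least 5 CPM, a list written after the values had been seen, 4 were at least 2-fold higher on both days and 0 lower. The medians were 0.27 at d8 and 2.99 at d16, beside feeder marker medians of −0.43 and 2.12, and the part of the feeders in the d16 values was not tested.

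LIF acts through the receptor chains Lifr and Il6st on STAT3, and its target genes were only in part higher. Of 29 LIF-STAT3 targets with at least 5 CPM, 2 (Bcl3 and Saa3) were at least 2-fold higher on both days (0.812% over all genes) and 0 lower (1.29%). At d8, 5 were higher (2.02% over all genes) and 1 lower (3.8%). At d16, 14 were higher (7.19%) and 0 lower (7.95%). Socs3, the feedback inhibitor of LIF signalling, stood at 43.6 and 106 CPM in Basal and 2iL at d8, a ratio of 2.43 (1.96 to 3.03), and at 318 and 430 CPM at d16, a ratio of 1.35 (1.25 to 1.46). Stat3 itself stood at 214 and 284 CPM at d8 and at 252 and 362 CPM at d16. Socs3 and Stat3 were thus above Basal on both days, but by less than the change between the days for Socs3, and neither passed the test (edgeR adjusted p = 0.842 for both). Bcl3, a co-factor of NF-kappaB, stood at 3.77 and 9.39 CPM at d8 and at 4.08 and 20.3 CPM at d16. Of the receptor genes, Il6st stood at 83.7 and 113 CPM at d8 and at 432 and 1258 CPM at d16, and Lifr at 23.3 and 22.7 CPM at d8 and 101 and 169 CPM at d16. The median log2 ratio of the list was 0.24 at d8 and 0.73 at d16, beside feeder marker medians of −0.43 and 2.12, and the part of the feeders was not tested. The median of the fitted log2 fold changes was 0.74, and 0.15 without 2iL d16.

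Some targets of ERK, which MEK activates, had lower values in 2iL. Of 27 ERK target and feedback genes with at least 5 CPM, 5 were at least 2-fold lower on both days (1.29% over all genes) and 1 higher (0.812%). Their medians were −0.61 at d8 and −0.66 at d16. Dusp6, a phosphatase that inactivates ERK, stood at 22.6 and 9.39 CPM in Basal and 2iL at d8 and at 43.8 and 12.2 CPM at d16. Spry2, a feedback inhibitor of receptor signalling, stood at 38.8 and 18.0 CPM at d8 and at 173 and 43.0 CPM at d16. Etv4, an ETS factor induced by FGF, had 9 counts in Basal d8 and none in 2iL d8, and stood at 41.4 and 9.33 CPM at d16. These genes were lower in 2iL on each day, and the Basal to 2iL ratio of Dusp6 was 2.41 at d8 (1.49 to 4.02) and 3.59 at d16 (2.45 to 5.45). Etv1 and the immediate early gene Egr1 completed the 5, with Egr1 at 272 and 91.5 CPM at d8 and 1266 and 576 CPM at d16. None passed edgeR's adjusted threshold, with adjusted p-values of 0.508 for Dusp6, 0.736 for Spry2, 0.605 for Etv4 and 0.291 for Egr1. Etv5 was lower at d8, at 12.7 and 1.96 CPM, but stood at 43.2 and 34.1 CPM at d16. Ier3, an early gene that also answers inflammatory signals, was the 1 higher member, at 4.80 and 13.3 CPM at d8 and 66.2 and 318 CPM at d16. Dusp6 and Etv4 stood at 273 and 119 CPM in the primed library, above both media. The summed level of the whole list of 32 genes, in which abundant members such as Egr1 weigh most, did not follow them. It was 1475 CPM in the primed library, 1624 and 1104 CPM in Basal and 2iL at d8 and 4232 and 3041 CPM at d16.

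Targets of beta-catenin, which GSK3 marks for degradation, were not higher as a group. Of 17 with at least 5 CPM, 1 was at least 2-fold higher on both days (0.812% over all genes) and 2 lower (1.29%). Their medians were −0.19 at d8 and −0.48 at d16. Axin2, the most general target of the pathway, stood at 107 and 79.8 CPM in Basal and 2iL at d8 and at 200.1 and 147 CPM at d16, with a log2 fold change of −0.44 ± 0.31 (edgeR adjusted p = 0.891). Nkd1 stood at 107 and 66.9 CPM at d8 and at 101 and 102 CPM at d16, and Lef1 at 12.3 and 10.95 CPM at d8 and 11.1 and 7.71 CPM at d16. Sp5 and Notum stayed below 7 CPM in all 4 libraries. Lgr5, a receptor for R-spondins and a target of the pathway, was the exception, at 9.94 and 53.6 CPM at d8 and at 8.16 and 39.0 CPM at d16. Its ratio was 5.39 at d8 (3.59 to 8.35) and 4.77 at d16 (3.31 to 6.99), and the groups did not overlap (edgeR adjusted p = 0.332). Msx1 and Msx2 were the 2 lower members.

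Among 35 Wnt ligands, receptors and antagonists with at least 5 CPM, 2 were at least 2-fold higher on both days (0.812% over all genes) and 5 lower (1.29%). The higher ones were Wnt4, a ligand, at 18.5 and 122 CPM in Basal and 2iL at d8 and 22.8 and 108 CPM at d16, and Sfrp1, a secreted antagonist, at 17.5 and 69.2 CPM at d8 and 79.0 and 332 CPM at d16. The lower ones were the ligands Wnt1 and Wnt3, the agonists Rspo2 and Rspo3, and the antagonist Frzb. Wnt3 stood at 19.5 and 7.43 CPM at d8 and at 20.96 and 4.46 CPM at d16. Ligands of the pathway were thus found on both sides of the comparison, and both R-spondins on the lower side. Among 9 FGF ligands and receptors with at least 5 CPM, Fgfr2 was lower on both days, at 129 and 60.2 CPM at d8 and 264 and 95.8 CPM at d16, and 0 were higher.

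**Figure D3:**
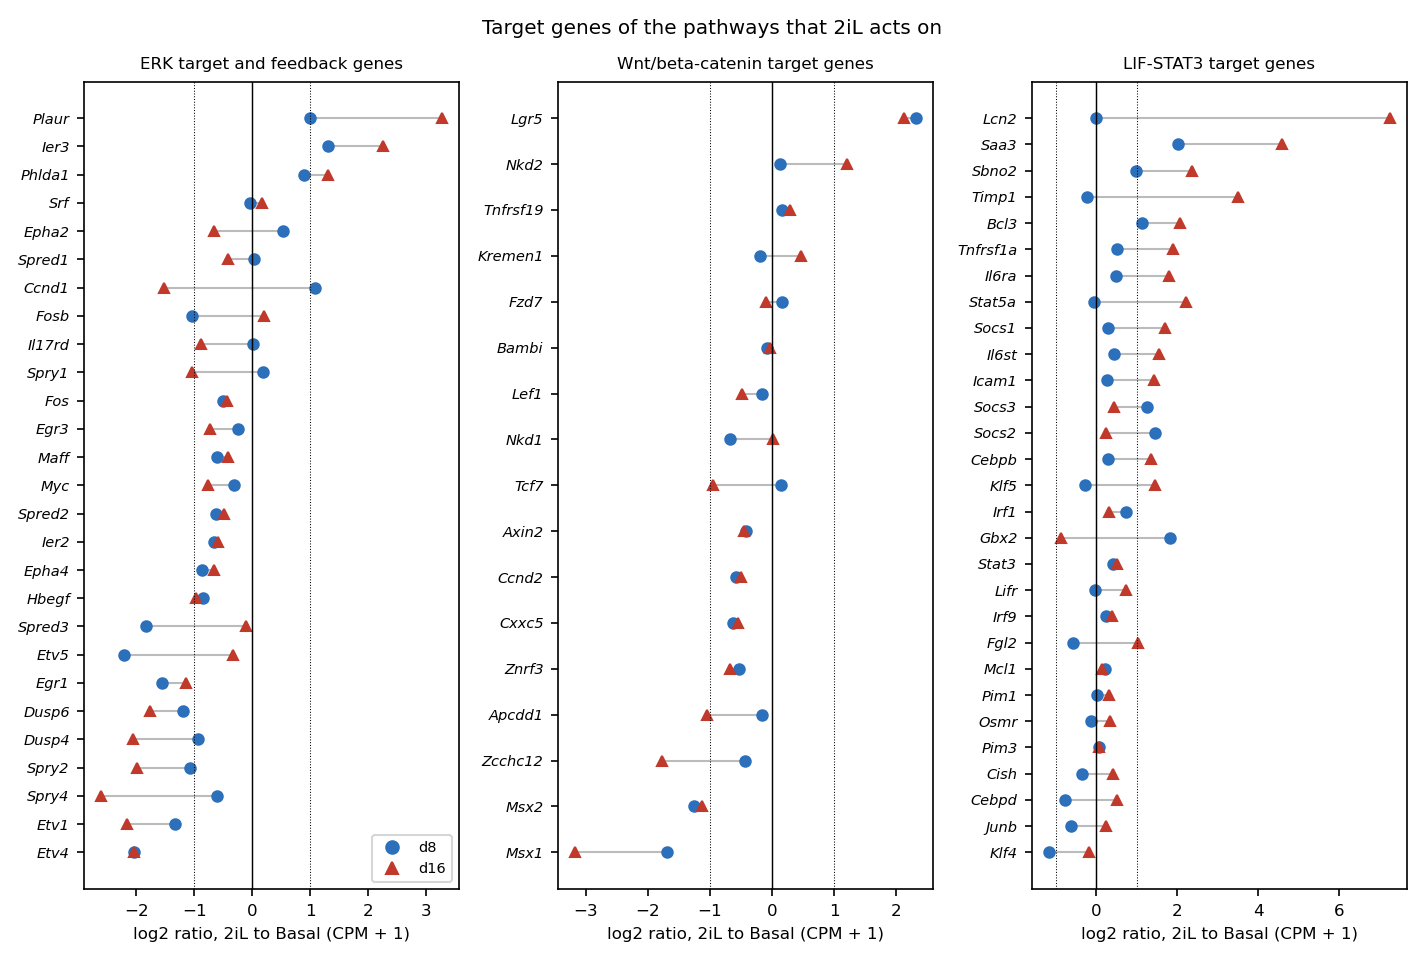
log2 ratio of 2iL to Basal, from CPM + 1, for each target gene with a mean of at least 5 CPM, circles for d8 and triangles for d16, with dotted lines at a 2-fold ratio. Most ERK targets lie left of 0 on both days, Lgr5 stands apart among the beta-catenin targets, and many LIF-STAT3 targets lie further right at d16 than at d8.

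Several defining genes of pluripotency were near the floor in both media, whereas others, such as Sox2, which neural progenitors also express, were well above it. Of 23 naive pluripotency genes, 5 reached a mean of 5 CPM, as did 8 of 16 general pluripotency and epithelial stem cell genes, and 0 of either differed by 2-fold on both days. Nanog, a factor of the naive state, stood at 1.37 and 1.96 CPM in Basal and 2iL at d8 and at 2.97 and 4.87 CPM at d16, against 247 CPM in the primed library. Esrrb, a naive factor that Tcf7l1 represses, stood between 0.406 and 3.09 CPM. The epithelial adhesion gene Cdh1 stood between 0.686 and 1.62 CPM, against 161 CPM in the primed library. Of 12 primed epiblast genes with at least 5 CPM, Otx2 and Zic5 were at least 2-fold lower on both days and 0 higher. Fgf5, which marks the primed state, stood between 0.343 and 2.44 CPM.

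The ratios of the 2 days were only partly alike, with a correlation of 0.24 between the d8 and d16 log2 ratios across the 13540 genes, which are not independent replicates. Over the same genes, 23 were at least 2-fold higher at d8 and at least 2-fold lower at d16, and 51 the reverse. Fibroblast and collagen genes shifted between the days. Col1a1 stood at 1382 and 1302 CPM in Basal and 2iL at d8 and at 2298 and 17221 CPM at d16, and Acta2, a smooth muscle actin, at 167 and 131 CPM at d8 and 153 and 482 CPM at d16. Of 24 feeder fibroblast markers with at least 5 CPM, 1 was higher (2.02% over all genes) and 3 were lower (3.8%) at d8. At d16, 18 were higher (7.19%) and 0 lower (7.95%). Proliferation genes shifted the other way, with a median log2 ratio of 0.64 at d8 and 0.17 at d16, and Mki67 at 175 and 274 CPM at d8 and 97.7 and 90.1 CPM at d16. The interaction test gave each Basal and 2iL library its own mean, so its spread on 8 libraries came only from the AICAR and AICAR+LIF libraries. Its p-values there measure no spread of 2iL or Basal cultures. By edgeR's interaction test on 8 libraries, which left 1 residual degree of freedom, 1102 genes differed in their response between the days (685 upwards from d8 to d16 and 417 downwards). Without normalization factors the split was 427 upwards and 840 downwards, and with all 22 libraries the test called 0 genes (1116 with an unadjusted p-value under 0.05).

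**Figure D4:**
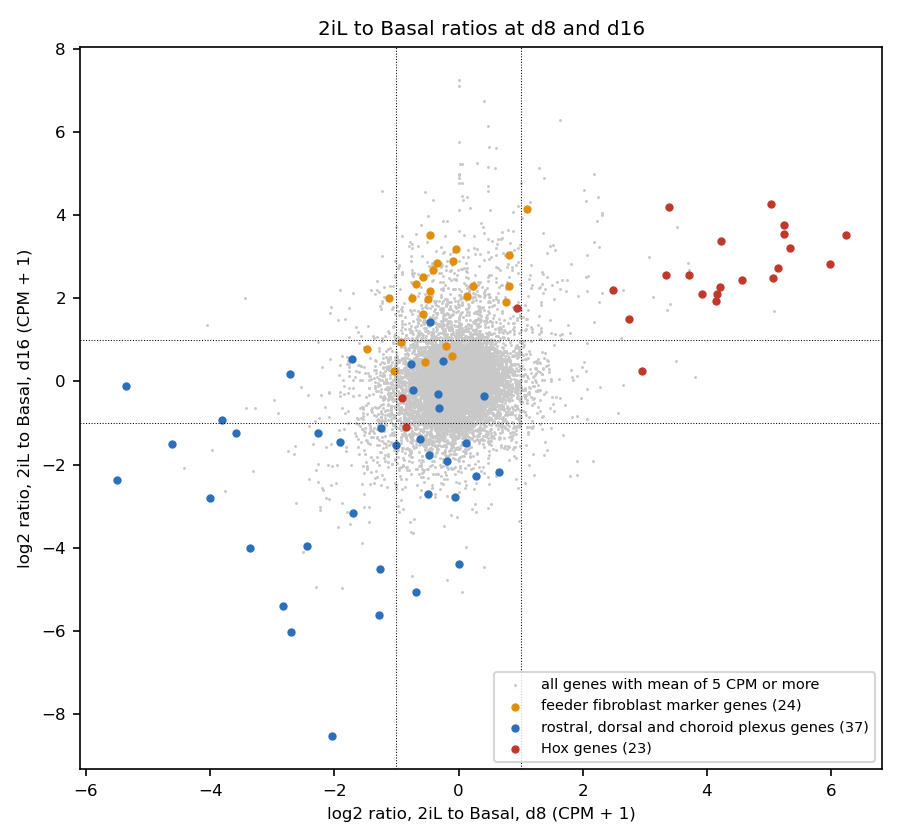
log2 ratio of 2iL to Basal at d8 (horizontal) against d16 (vertical), from CPM + 1, for 13540 genes, with Hox genes in red, feeder fibroblast markers in orange and rostral, dorsal and choroid plexus genes in blue, the last picked after their values were seen. Most Hox genes lie at the upper right, with Hoxa2 and Hoxb2 at the lower left, blue genes mostly at the lower left, and fibroblast markers spread upwards at d16 only.

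**Figure D5:**
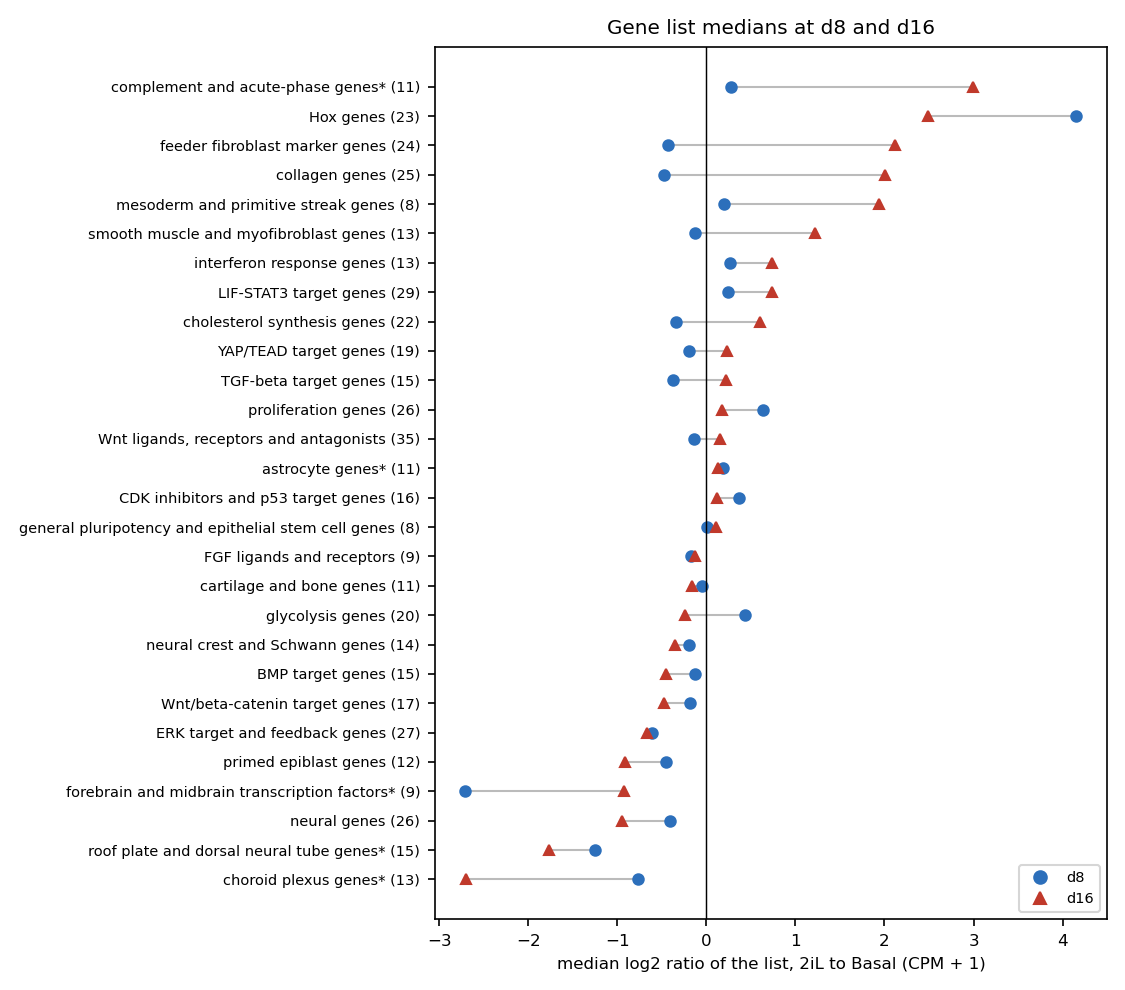
Median log2 ratio of 2iL to Basal for each gene list with at least 8 members above 5 CPM (number in brackets), circles for d8 and triangles for d16, with an asterisk on lists chosen after the values were seen. The Hox median (4.16 at d8 and 2.48 at d16) covers only members above 5 CPM, most of which reached that level only in 2iL, and feeder and collagen lists change sign between the days.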

How the data were processed

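Strand-specific mRNA libraries were read from 1 end by the authors, who aligned them with Bowtie2 2.2.5 to transcripts of Ensembl release 100 (GRCm38), dropped alignments with a MAPQ below 1 and deposited raw whole-number counts per gene. Copies of nearly the same sequence may therefore have lost or exchanged reads, and use of strand in counting is not given in the sources used here. 2iL was compared with Basal medium by edgeR 4.0.16 (R 4.3.3, quasi-likelihood test, TMM factors, filterByExpr) on the 8 Oct4GIP cultures with the day as a term, with Benjamini-Hochberg adjustment at 0.05. Ratios used CPM + 1, and counting intervals were exact (95%). Whether d8 and d16 came from separate cultures is not given in the sources used here. No medium had a repeat on the same day. The spread behind the p-values was thus how far the treatment differences changed between d8 and d16, over the 8 libraries (3 residual degrees of freedom). It mixes change with time and technical spread, and it does not measure the spread between repeat cultures. The interaction test gave each Basal and 2iL library its own mean. Its spread on the 8 cultures came from the AICAR and AICAR+LIF libraries alone. The day in the labels (d8 or d16) paired the libraries and was the block. DESeq2 1.42.0 and limma 3.58.1 were alternatives. Positions are from GENCODE M21, promoters from RefSeq. Tests were tried on simulated data with a fixed spread and no effect of the day, so that trial does not cover the change between days met here.

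Named genes were, per direction, up to 12 called genes without overlap between the groups and a mean of at least 10 CPM, filled up with those at least 2-fold apart on both days by the smaller ratio, then index genes and list members. C3 and Ttr overlapped and were named as the calls. Other members named for their roles were chosen after their values were seen. The gene lists and all members were chosen with earlier results of these data known. Python 3.11.15, numpy 2.4.6, pandas 2.3.3, scipy 1.17.1 and matplotlib 3.10.9 were used.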

Additional observations from a re-analysis of the deposited data

Results flagged for a closer look

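Between d16 and d8, the 2iL to Basal difference changed by −3.05 on the log2 scale for Hoxb9, 2.32 for Etv5, −1.25 for Sox2, 2.99 for Col1a1 and 2.00 for Acta2 by edgeR's interaction test on the 8 cultures (adjusted p = 0.00301, 0.0316, 0.000826, 1.5e-45 and 9.33e-11). That test had 1 residual degree of freedom, and with all 22 libraries the adjusted p-values were 0.97, 0.678, 0.417, 0.959 and 1. The 1 degree of freedom came from the AICAR and AICAR+LIF libraries, so the p-values on the 8 cultures measure no spread of 2iL or Basal. Lists with at least 8 members above 5 CPM whose median log2 ratio had opposite signs on the 2 days were not tested for that difference. Endoderm, endothelial and blood, and epithelial and keratinocyte genes, with fewer such members, also had opposite signs. From d8 to d16 the median changed by 2.55 for the feeder fibroblast markers, 2.49 for collagen genes, 1.35 for smooth muscle and myofibroblast genes, 0.95 for cholesterol synthesis genes, 0.59 for TGF-beta targets, 0.42 for YAP/TEAD targets, 0.29 for Wnt ligands, receptors and antagonists and −0.66 for glycolysis genes.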

How the results depend on the processing

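The counts of called genes depended on the method. Against 1 higher and 1 lower, DESeq2 called 57 and 39, limma voom 12 and 4, edgeR without a filter 244 and 142, edgeR with all 22 libraries 42 and 17, and, as alternatives added after seeing the data, edgeR without both AICAR libraries at d8 27 and 10. Without the replicate block (no term for the day) edgeR called 0 and 0 (257 genes with an unadjusted p-value under 0.05), on the 4 libraries 4 and 2 with the replicate block and 0 and 0 without it (149 unadjusted), and with at least 10 counts in each of the 8 libraries 0 and 0 (474 unadjusted). Leaving out each library gave 0 to 52 higher genes and 0 to 12 lower, with 0 and 0 without Basal d16, 1 and 0 without 2iL d16 and 52 and 12 without 2iL d8, where the lone sample left is assumed to vary like the other groups. Against 0 Hox genes called higher, edgeR without a filter called 22, DESeq2 14, all 22 libraries 11, the set without both AICAR libraries at d8 8, the 4 libraries with the replicate block 3, the set without 2iL d16 1 and limma voom and the other alternatives 0. The 2-fold counts were 37 higher and 25 lower at 4-fold, 273 and 515 at d8 alone (added after seeing the data), and 268 lower without a minimum level. Hox genes higher on both days stayed between 17 and 23. The interaction called 621 genes with at least 10 counts in each of the 8 libraries and 0 with all 22, and leaving out a library was not possible there. The causes were not tested. For C3 and Ttr no alternative turned the direction. With 1 library a day on each side, ratios that rest on 3 counts or fewer have wide counting intervals.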

Other observations

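Igf2, a growth factor of embryonic mesenchyme, stood at 169 and 847 CPM in Basal and 2iL at d8 and at 786 and 12990 CPM at d16 (log2 fold change 3.24 ± 0.44, edgeR adjusted p = 0.0982), and at 6862 CPM in AICAR d16 and 7633 in AICAR+LIF d16. Mesenchymal factors lay on the same side, Twist1 at 4.46 and 10.95 CPM at d8 and 12.4 and 73.1 CPM at d16, and Osr1 at 1.03 and 5.48 CPM at d8 and 6.86 and 41.8 CPM at d16. Runx1, a factor of blood and of stromal cells, stood at 1.37 and 8.998 CPM at d8 and at 7.42 and 68.6 CPM at d16. These 3 genes were above Basal on each day, with larger levels at d16, when the feeder markers were also higher in 2iL.

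Astrocyte genes were split. Aldoc, a glycolytic enzyme of astrocytes, stood at 12.002 and 39.5 CPM in Basal and 2iL at d8 and at 530 and 1148 CPM at d16, while Fabp7 lay below Basal on both days. Of 11 genes of that list, which was written after its values had been seen, 1 was at least 2-fold higher and 1 lower on both days. Their sum was 1078 and 894 CPM in Basal and 2iL at d8 and 12632 and 20105 CPM at d16. Among cell-cycle inhibitors and p53 targets, Cdkn1a, the p21 inhibitor, stood at 145 and 353 CPM at d8 and at 106 and 153 CPM at d16, and Phlda3 at 26.1 and 60.6 CPM at d8 and 33.8 and 82.8 CPM at d16. Neither passed the test, with edgeR adjusted p-values of 0.46 and 0.402.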
